A study of Rattus norvegicus with 4 samples.

Results

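Arterial endothelial cells line the vessels that carry blood into the heart muscle. Their arterial character is known to depend on Notch signalling, in which ligands such as Dll4 and Jag1 on one cell activate Notch receptors on its neighbour and switch on the Hey repressors, with SOX17 acting alongside, and on shear stress from fast flow. Arterial cells sit on elastin-rich matrix and are coupled by the connexins Gja5 and Gja4, whereas venous cells depend on the nuclear receptor Nr2f2, and capillary cells specialise in exchange and fatty acid uptake.

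Arterial endothelial nuclei were studied in single-nucleus RNA sequencing of rat heart, in which transcripts of single nuclei are counted by unique molecular identifiers (UMIs). They were chosen by their own transcripts: at least 2 UMIs summed over Gja5, Sox17, Hey1, Sema3g and Dll4, a sum of at least 0.1% of the nucleus's UMIs, at least 2 UMIs over the endothelial genes Cdh5, Ptprb and Flt1, and 0 UMIs of Npr3, Prox1 and Pdgfra, which mark endocardium, lymphatic vessels and fibroblasts. Pecam1, also part of that endothelial condition, was not found under that symbol and is not analysed here. The rule gave 287 members among 48637 barcodes, of which 46590 held 500 UMIs and 300 genes or more with no more than 10% of UMIs from mitochondrial genes, and 12451 met the endothelial condition. The comparison endothelium was 9500 barcodes with the same endothelial condition and 0 UMIs of the 5 arterial genes.

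The tissue was the infarct zone of Sprague Dawley rats from 1 Sham sample and 3 myocardial infarction samples, MI_1H, MI_6H and MI_24H, with 1 library each. Whether 1, 6 and 24 hours count time under coronary ligation, as the series' design has it, or time of reperfusion, as the sample labels do, could not be decided. Nuclei of all 4 samples share 1 matrix in which the barcode suffix, 1 to 4, tells the libraries apart without saying which sample each is. Infarcted and Sham hearts were therefore not compared, nor were times, no p-value is given, and libraries go by their suffix. Each comparison was made inside a library, and intervals are exact 95% intervals that cover counting error only, not the spread between nuclei or animals.

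Members numbered 79, 20, 54 and 134 in libraries 1 to 4, with medians of 1340, 1350.5, 1670 and 2126.5 UMIs. The comparison endothelium had 1667, 1670, 4027 and 2136 barcodes with medians of 1316, 841, 2740 and 3061 UMIs. Library 2 stood apart, with 20 members and a median of 609 UMIs over all its filtered barcodes. Its values are given but it was not used to call a gene, and the other 3 are the counted libraries. Of 48372 barcode sequences, 264 occurred in more than 1 library, and 4 members carried one of them, none shared with another member. Of the 287 members, 279 remained when the barcodes with the highest doublet scores were removed. The same step left 8013 of the 9500 comparison barcodes, and in library 3 it left 3062 of 4027 with all 54 members kept.

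The 5 genes that chose the members were unevenly carried. Sox17, a transcription factor of arterial specification, was seen in 204 of the 287 members, the Notch ligand Dll4 in 168, the connexin Gja5 in 107, the semaphorin Sema3g in 70 and the Notch target Hey1 in 20. A single one of the 5 was detected in 96 members, 2 in 119, 3 in 53, 4 in 19 and all 5 in 0. The sum was 2 UMIs in 120 members, 3 in 65 and 4 or more in 102, up to 20. Every one of the 20 members of library 2 carried Dll4, and 1 carried Gja5. Dll4 was also seen in 3.62% of the library 2 barcodes with no endothelial UMI (median 590 UMIs), against 0.624, 0.943 and 1.55% in libraries 1, 3 and 4 (medians 1391, 1760.5 and 1544.5 UMIs).

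Members made up 3.58% of endothelial barcodes in library 1 (2.85 to 4.45%), 1.01% in library 2 (0.616 to 1.55%), 1.09% in library 3 (0.821 to 1.42%) and 4.05% in library 4 (3.40 to 4.77%). After each barcode was thinned to 1000 UMIs, with 21, 5, 1 and 6 members in libraries 1 to 4 left out as shallower, the shares were 3.31, 1.14, 1.12 and 4.14%. The shares of libraries 1 and 4 thus lay above those of libraries 2 and 3 with intervals that did not overlap, except that those of libraries 1 and 2 overlapped after thinning, at 2.35 to 4.52% and 0.418 to 2.46%. Among barcodes with 0 endothelial UMIs, the 5-gene condition was met by 3 of 5925, 15 of 8725, 1 of 8486 and 0 of 2190, the last allowing a share of up to 0.137%. The endothelial condition also admitted barcodes with few endothelial UMIs for their depth, so a strict comparison was added after the data were seen. It required endothelial genes to take at least 0.2% of UMIs and 0 UMIs of Npr3, Prox1 and Pdgfra, and kept 1161, 1031, 1177 and 1005 barcodes. Against it, members made up 6.37, 1.90, 4.39 and 11.8% of members and strict comparison together, and library 3 then lay above library 2, while the intervals of libraries 1 (5.08 to 7.88%) and 3 (3.31 to 5.69%) overlapped. Members themselves did not have to reach 0.2%, and endothelial barcodes with UMIs of the 5 genes that failed the rule were left out. These values are therefore not shares of an endothelial population, and their order need not be that of such shares.

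**Figure D1:**
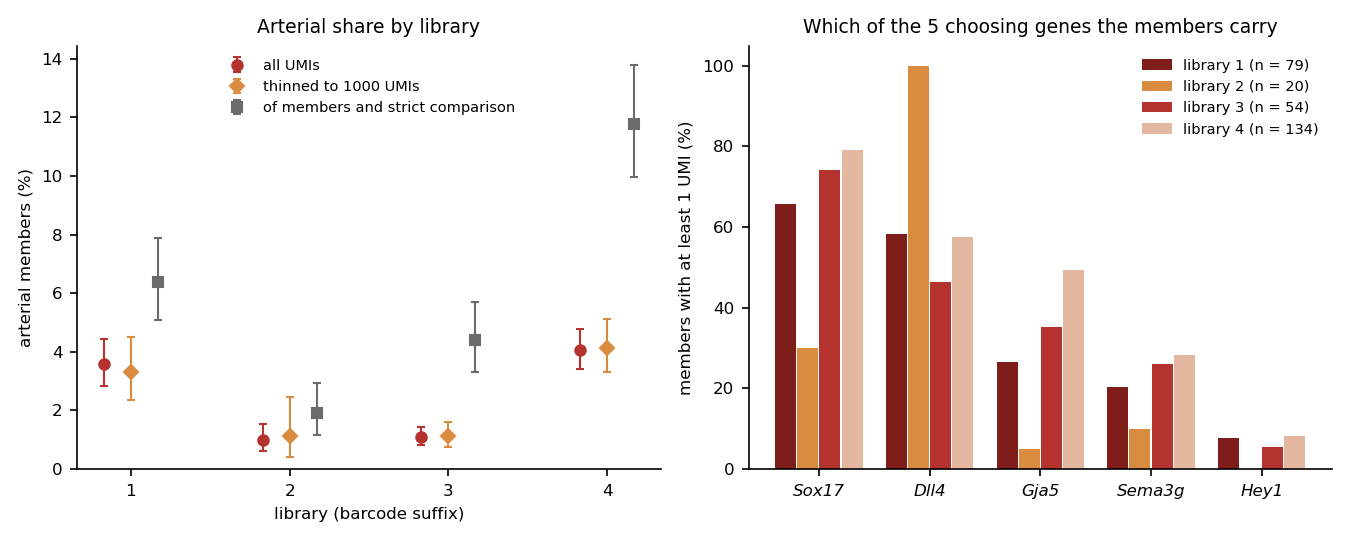
The left panel plots arterial members as a percentage of endothelial barcodes by library, with all UMIs (circles), after thinning to 1000 UMIs (diamonds) and as a percentage of members plus the strict comparison (squares), and bars are exact 95% intervals. The right panel gives the percentage of members carrying each of the 5 choosing genes by library, and all 20 members of library 2 carry Dll4.

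Nuclei at the edge of the rule can be set beside those just outside it. CPM, the UMIs of a gene in each 1000000 UMIs, was formed over the summed UMIs of each set. The 120 members with 2 UMIs of the 5 genes had 4515 CPM of Arl15, 688 of Sulf1 and 107 of Dkk2, whereas 1264 endothelial barcodes with 1 UMI had 1507, 221 and 27.8 CPM. The 55 members with 0.10 to 0.12% of UMIs in the 5 genes had 4037, 1168 and 545 CPM of Arl15, Sulf1 and Dkk2, and the 57 endothelial barcodes at 0.08 to 0.10% had 4409, 1110 and 394 CPM. Barcodes just under the percentage limit were thus close to the members just above it, whereas those with 1 UMI were lower for all 3 genes.

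The label was checked against markers. All 8 pan-endothelial markers found were seen, but the rule used 3 of them, so their sum is no check. That sum was 7159, 4751, 4643 and 6102 CPM in arterial nuclei and 5857, 3358, 2453 and 4128 CPM in comparison endothelium. The strict comparison, chosen by a minimum share of those 3, had 8138, 5083, 6048 and 6902 CPM. The part of this difference in the higher values of general endothelial genes was not tested. Egfl7, a secreted endothelial protein that the rule did not use, had 707, 534, 426 and 748 CPM in arterial nuclei and 613, 454, 251 and 469 CPM in comparison endothelium. Of the others that the rule did not use, Tie1 and Erg were also higher in arterial nuclei of every library. Tek was lower in library 2, at 240 against 315 CPM, and Emcn in library 4, at 269 against 357 CPM. Of 27 measured genes of an arterial identity list, without the 5 choosing genes, 23 were above the comparison endothelium in all 3 counted libraries, beside 1443 of all 9927 genes measured. The name had less support in library 2, where few arterial UMIs make the check weak. Hey2 and Bmx had 0 arterial UMIs there, with exact intervals up to 98.5 CPM. Eln, Smad6 and Jag1 were below the comparison endothelium there, on 3, 3 and 2 arterial UMIs. Hey1 had 0 UMIs and 1 member carried Gja5, but both are choosing genes and so are no check.

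Markers of other cell types were also present, some at high levels. All 7 vascular smooth muscle markers were seen, summing to 48.8, 53.4, 18.1 and 132 CPM in arterial nuclei and 150, 161, 106 and 149 CPM in comparison endothelium, and the strict comparison had 123 CPM in library 4, below the arterial nuclei there. Endocardial markers summed to 81.3, 133, 127 and 96.3 CPM, against 381, 201, 353 and 312 CPM, with Npr3 at 0 by the rule and Hapln1 and Tmem108 at 0. The comparison sums keep the genes that the rule set to 0 in members, so part of such a gap was fixed in advance. The strict comparison, which also had 0 of those genes, had 79.2, 198, 207 and 189 CPM. Lymphatic markers came to 106, 133, 435 and 264 CPM, against 647, 368, 616 and 485 CPM, with Prox1 at 0 by the rule. Their strict sums were 99.8, 350, 369 and 249 CPM, below the arterial nuclei in libraries 1, 3 and 4. The 6 cardiomyocyte markers found summed to 2015, 2242, 1506 and 1221 CPM, against 5484, 3692, 2035 and 3026 CPM. Macrophage markers moved with the library on both sides and exceeded the pan-endothelial sum of 4643 CPM in arterial nuclei of library 3. They stood at 106, 2242, 5514 and 907 CPM in arterial nuclei and 125, 3095, 4492 and 1585 CPM in comparison endothelium. Fibroblast markers summed to 374, 1094, 2821 and 902 CPM in arterial nuclei, with Pdgfra at 0 by the rule, against 605, 2205, 4350 and 2208 CPM in comparison endothelium. Their strict sums were 348, 1720, 2240 and 1033 CPM, below the arterial nuclei in libraries 1 and 3. Neutrophil markers had 40.6, 160, 1197 and 350 CPM in arterial nuclei, against 55.1, 303, 913 and 415 CPM. Red blood cell markers had 366, 1228, 1243 and 2496 CPM in arterial nuclei, against 170, 538, 1183 and 2822 CPM, and were higher in arterial nuclei of libraries 1, 2 and 3. Epicardial markers were higher in arterial nuclei of all 4 libraries, at 236, 133, 145 and 114 CPM, against 199, 67.5, 39.1 and 60.7 CPM in comparison endothelium, and 3 of the 5 were at 0. Most of that sum was 1 gene, Wt1, at 236, 133, 136 and 98.8 CPM in arterial nuclei. Barcodes with no endothelial UMI had 8.59, 34.3, 15.1 and 22.4 CPM of Wt1. The epicardial sum of the strict comparison was 270, 76.3, 71.3 and 93.2 CPM, above the arterial nuclei in library 1. The part of these cell types in the results was not tested. Cd3e, Cd3d and Themis of the T or NK cell list and 4 of the 5 B cell markers were at 0 in arterial nuclei.

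A gene was called when arterial nuclei differed from the comparison endothelium at least 2-fold in 1 direction in each counted library, on CPM with 10 added. Of 9927 genes measured, 88 were called higher (0.886%) and 166 lower (1.67%). Against the strict comparison, 85 of 9706 were higher (0.876%) and 56 lower (0.577%). Of the 88 higher genes, 66 were also called against the strict comparison and none was higher in barcodes with no endothelial UMI than in arterial nuclei. Of the 166 lower genes, 24 were also called against the strict comparison, and 134 were more abundant in barcodes with no endothelial UMI than in the comparison endothelium. The comparison endothelium carried more cardiomyocyte marker RNA than the arterial nuclei in every library, and the part of that RNA in the lower calls was not tested. Strict values are therefore given for the 10 lower genes named by the size of their difference. The median log2 difference over all measured genes was -0.09.

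The 14 higher genes named include several that encode secreted or matrix proteins. Dkk2, a secreted modulator of Wnt signalling, had 853, 507, 843 and 829 CPM in arterial nuclei of libraries 1 to 4, against 9.19, 10.1, 5.32 and 3.22 CPM in comparison endothelium, with a median log2 difference of 5.80 over the counted libraries. The ratio was 92.9 in library 1 (61.1 to 145), 159 in library 3 (117 to 214) and 257 in library 4 (176 to 390), so the summed levels were far apart in each. Dkk2 was nonetheless seen in only 55 of the 287 members (19.2%), with up to 66 UMIs in 1 nucleus. By library that was 7.59, 5, 22.2 and 26.9% of members and 0.960, 1.02, 1.07 and 0.936% of comparison barcodes, while 0.928, 0.596, 0.471 and 0.685% of barcodes with no endothelial UMI had Dkk2. The 19 UMIs in library 2 came from the 1 member there that carried Gja5.

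Sulf1, an extracellular enzyme that removes sulfate groups from heparan sulfate, had 1723, 374, 1016 and 1791 CPM in arterial nuclei and 155, 191, 123 and 168 CPM in comparison endothelium. It was 11.1-fold higher in library 1 (9.44 to 13.1), 8.24-fold in library 3 (6.75 to 9.97) and 10.6-fold in library 4 (9.72 to 11.6), and in library 2 the ratio was 1.96 (1.06 to 3.32). Sulf1 was detected in 156 members. Pdgfd, a platelet-derived growth factor ligand, had 1032, 267, 417 and 436 CPM in arterial nuclei and 152, 77.6, 64.1 and 63.2 CPM in comparison endothelium, and its ratios of 6.79, 6.50 and 6.90 in libraries 1, 3 and 4 were nearly equal. Pcsk5, a proprotein convertase that cleaves secreted precursors, reached 414, 107, 172 and 408 CPM in arterial nuclei, against 56.7, 36.1, 30.9 and 39.1 CPM in comparison endothelium.

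Elastin (Eln), the core protein of elastic fibres, had 2373, 80.1, 1487 and 1807 CPM in arterial nuclei and 547, 195, 350 and 336 CPM in comparison endothelium. It was 4.34-fold higher in library 1 (3.82 to 4.92), 4.25-fold in library 3 (3.62 to 4.97) and 5.37-fold in library 4 (4.95 to 5.83), and in library 2, with 3 arterial UMIs, the ratio was 0.411 (0.0844 to 1.21). Eln was carried by 35.4, 15, 38.9 and 56.0% of members and 32.6, 18.0, 47.9 and 41.9% of comparison barcodes, not adjusted for depth. The higher level was thus not matched by wider detection in every library, and 1 member held 112 UMIs. Of 23 measured elastic fibre and basement membrane genes, 3 were called higher, Eln, the elastic fibre protein Fbln5 and the laminin chain Lama5, and 0 lower, with a list median of 0.10. Against the strict comparison 4 were called higher, Eln, the calcification inhibitor Mgp and the collagens Col8a1 and Col18a1, whereas Fbln5 and Lama5 were not, with median log2 differences of 1.56 and 1.06.

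Several intracellular regulators were also higher. Arl15, a small GTPase of the ARF-like family, had 8573, 1468, 3827 and 4488 CPM in arterial nuclei and 1541, 680, 628 and 706 CPM in comparison endothelium. It was the most widely carried of the higher genes named here, in 258 of 287 members. Its ratio was 5.56 (5.20 to 5.95), 2.16 (1.62 to 2.82), 6.09 (5.51 to 6.71) and 6.36 (6.03 to 6.71) in libraries 1 to 4, above 1 in all. Ldb2, an adaptor of LIM-domain transcription factors, had 918, 267, 381 and 1183 CPM in arterial nuclei, against 177, 71.4, 56.6 and 83.5 CPM in comparison endothelium. Tox, an HMG-box nuclear protein, had 439, 214, 272 and 509 CPM in arterial nuclei, against 72.9, 43.1, 44.1 and 61.4 CPM in comparison endothelium. Smad6, an inhibitor of BMP signalling, reached 902, 80.1, 453 and 608 CPM in arterial nuclei, against 136, 124, 85.0 and 84.2 CPM, so library 2, with 3 arterial UMIs, did not share the difference.

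The remaining higher genes of the 14 named were Ifitm10, Tmem178a, Tmem63c, the actin-regulating family member Eps8l2 and the sialyltransferase St6galnac3. Their median log2 differences over the counted libraries ranged from 2.15 for St6galnac3 to 3.29 for Ifitm10, which had 219, 26.7, 254 and 413 CPM in arterial nuclei and 24.7, 22.1, 16.9 and 23.2 CPM in comparison endothelium. All 14 were also called higher against the strict comparison. In library 2, Smad6 and Eln were lower in arterial nuclei than in comparison endothelium, and Eps8l2 had 0 arterial UMIs.

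**Figure D2:**
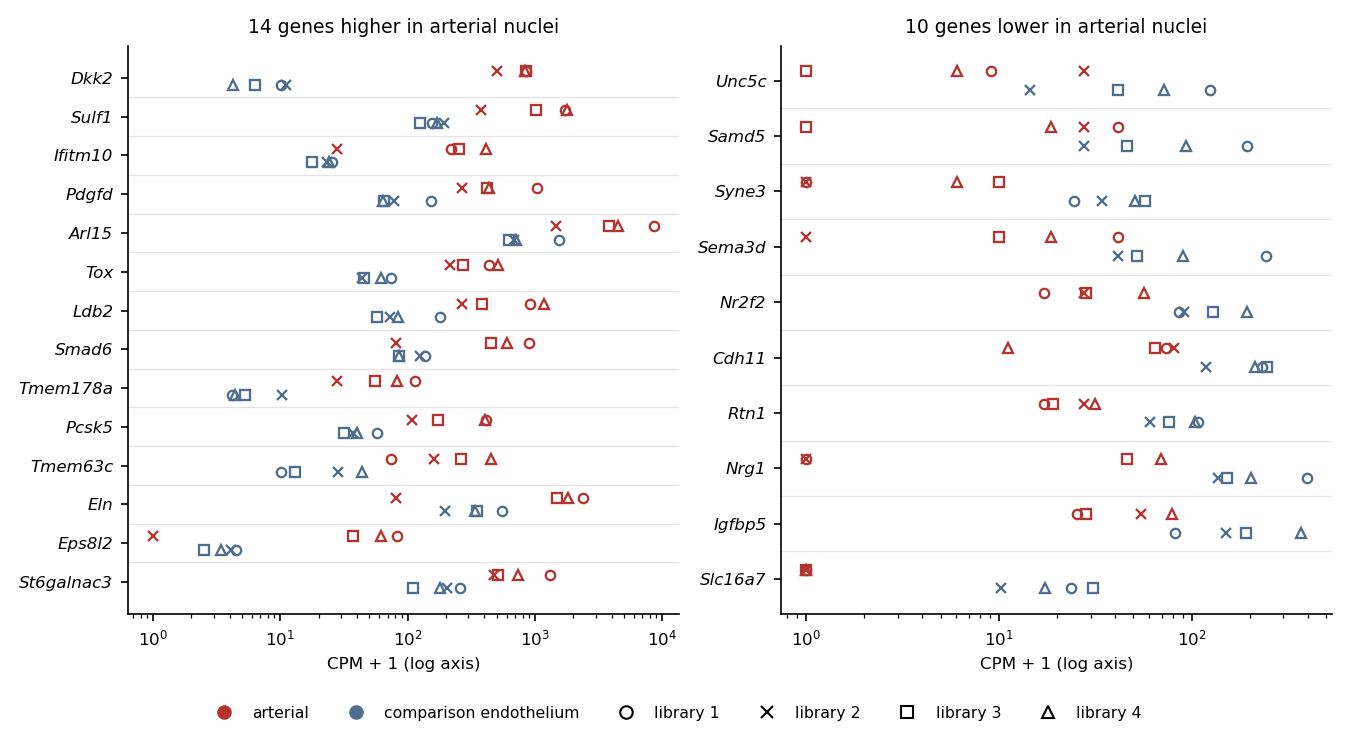
CPM with 1 added (log axis) of the 14 higher and the 10 lower genes chosen by the naming rule, in arterial nuclei (red, above) and comparison endothelium (blue, below) of libraries 1 to 4, each point being 1 library. For Dkk2 the arterial points lie between 507 and 853 CPM and the comparison points between 3.22 and 10.1 CPM, and library 2 (crosses) lies nearest the comparison for many of the higher genes.

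Promoters of the first of these genes to have an entry in the RefSeq table of build GRCr8 are printed because these genes were all called higher. Since the choosing genes include a Notch ligand, a Notch target and a SOX factor, the RBPJ core TGGGAA and the SOX core AACAAT were searched on both strands, with motif matches in capitals. Each runs from 250 bases before to 50 bases after the gene's start, 5′ to 3′ on the gene's strand. Dkk2, Sulf1, Hey1 and Dll4 have no entry there.
Ifitm10, chr1:206954545-206954844, minus strand: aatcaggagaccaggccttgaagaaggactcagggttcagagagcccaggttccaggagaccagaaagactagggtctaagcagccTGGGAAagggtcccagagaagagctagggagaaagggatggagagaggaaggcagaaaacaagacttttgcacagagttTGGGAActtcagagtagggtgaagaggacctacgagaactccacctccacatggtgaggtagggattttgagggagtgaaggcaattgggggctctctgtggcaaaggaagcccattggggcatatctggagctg
Pdgfd, chr8:11773258-11773557, plus strand: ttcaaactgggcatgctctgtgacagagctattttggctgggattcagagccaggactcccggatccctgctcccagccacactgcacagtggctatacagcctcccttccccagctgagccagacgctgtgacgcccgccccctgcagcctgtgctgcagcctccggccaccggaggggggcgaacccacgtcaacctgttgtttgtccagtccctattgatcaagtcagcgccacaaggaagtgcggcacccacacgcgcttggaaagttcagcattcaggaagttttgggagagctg
Arl15, chr2:47171138-47171437, plus strand: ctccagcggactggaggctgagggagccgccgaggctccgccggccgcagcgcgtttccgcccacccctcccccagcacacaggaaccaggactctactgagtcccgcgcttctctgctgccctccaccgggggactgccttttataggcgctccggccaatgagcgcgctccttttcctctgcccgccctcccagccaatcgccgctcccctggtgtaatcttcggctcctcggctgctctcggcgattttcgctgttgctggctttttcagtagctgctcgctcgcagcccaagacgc
Ifitm10 held 2 matches to TGGGAA, at 164 and 85 bases before the start, and the other 2 windows held neither motif. TGGGAA was in 25.68% and AACAAT in 11.7% of 33469 promoters of the same length. Of the 14 higher genes, 8 had an entry, of which 2 held TGGGAA and 0 held AACAAT. A match is a description of the letters, not a binding site.

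Among the 10 lower genes named, 7 were also called lower against the strict comparison. Unc5c, a netrin receptor, had 8.13, 26.7, 0 and 5.07 CPM in arterial nuclei, from 1, 1, 0 and 2 UMIs, against 124, 13.6, 40.7 and 71.3 CPM in comparison endothelium, with a median log2 difference of -2.43, or -3.44 against the strict comparison. Nr2f2, the venous nuclear receptor, had 16.3, 26.7, 27.2 and 55.7 CPM in arterial nuclei and 85.5, 90.8, 128 and 192 CPM in comparison endothelium. Its ratio was 0.290 in library 4 (0.181 to 0.440), and its median log2 difference was -1.86, or -2.28 against the strict comparison. Sema3d, a secreted guidance semaphorin, had 40.6, 0, 9.07 and 17.7 CPM in arterial nuclei, against 244, 40.8, 50.9 and 89.1 CPM, with a strict median of -2.40. Igfbp5, which binds insulin-like growth factors, had 24.4, 53.4, 27.2 and 78.6 CPM in arterial nuclei, against 81.4, 151, 190 and 369 CPM, with a strict median of -2.69.

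Samd5, the nuclear envelope protein Syne3 and the endoplasmic reticulum protein Rtn1 completed the 7, with median log2 differences of -2.01, -1.80 and -1.61, or -2.76, -1.92 and -2.18 against the strict comparison. The other 3 lower genes did not keep the call. Cdh11, a cadherin that is also on the endocardium list, Nrg1, a ligand of ErbB receptors, and Slc16a7, a monocarboxylate transporter, had median log2 differences of -1.80, -1.55 and -1.71 against the comparison endothelium and -0.87, -0.82 and -1.06 against the strict comparison. Slc16a7 had 0 arterial UMIs in any library. With a floor of 3 counts over the group it was at least 5.26-fold lower than in comparison endothelium.

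Genes of arterial identity that the rule had not used were higher as a group. Of 27 measured, 10 were called higher and 0 lower, beside 0.886% and 1.67% of all genes. The list median was 1.35 on the log2 scale, or 1.29 against the strict comparison. By library it was 1.05, 0.65, 1.57 and 1.35. The 10 were Bmx, Pcsk5, Mecom, Hey2, Efnb2, Gja4, Fbln5, Jag1, Cxcl12 and Tmem100, of which Fbln5 and Cxcl12 were not called against the strict comparison. The ligand Efnb2, whose receptor Ephb4 marks veins, had 878, 320, 444 and 671 CPM in arterial nuclei, against 295, 78.4, 85.5 and 119 CPM in comparison endothelium, and its ratio was above 1 in all 4 libraries. Bmx, a non-receptor tyrosine kinase of arterial endothelium, had 65.0, 0, 99.8 and 296 CPM in arterial nuclei, against 10.5, 5.43, 5.79 and 6.78 CPM, highest in library 4. Gja4, the second arterial connexin, had 32.5, 53.4, 136 and 137 CPM in arterial nuclei, from 4, 2, 15 and 54 UMIs, against 5.39, 13.98, 21.0 and 19.7 CPM. Nrp1, a co-receptor for VEGF and semaphorins, was the 1 member of the list below the comparison endothelium in all counted libraries, with a median of -0.33, and was not called.

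The Notch pathway was uneven among its parts. The ligand Jag1 had 252, 53.4, 200 and 223 CPM in arterial nuclei and 70.7, 97.1, 53.7 and 73.3 CPM in comparison endothelium, and was called higher. The ligand Jag2 had 122, 80.1, 127 and 124 CPM in arterial nuclei and 65.9, 33.0, 14.7 and 34.6 CPM, short of 2-fold in library 1. The endothelial receptors Notch1 and Notch4 had median log2 differences of 1.34 and 1.52 and were not called in every counted library, and were chosen here after their values were seen. Notch2 was called lower at -1.77, but was more abundant in barcodes with no endothelial UMI than in arterial nuclei and had -0.74 against the strict comparison. The target Hey2 was called higher, at 32.5, 0, 72.6 and 73.5 CPM in arterial nuclei against 4.44, 5.05, 5.03 and 7.45 CPM, whereas Heyl, with 10 arterial UMIs, had a median of -0.71, or 0.06 against the strict comparison. Of 19 measured Notch genes, 2 were called higher and 1 lower, with a list median of 0.28, or 0.10 against the strict comparison.

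Most venous genes were not called. Of 14 measured, 6 were below the comparison endothelium in all counted libraries, beside 2490 of all 9927 genes measured. Called higher were 0 and lower 2, the venous regulator Nr2f2 and the metalloprotease Tll1, beside 88 and 166 of all genes. The list median was -1.02, or -0.97 against the strict comparison, which also called the interleukin receptor Il1r1. The median by library was -1.57, -0.17, -0.09 and -0.93, so in libraries 2 and 3 it was close to the median of all genes. Selp, a selectin that venous cells present to leukocytes, had 0 UMIs in libraries 1 and 2, and 81.6 and 32.9 CPM in arterial nuclei of libraries 3 and 4, against 26.6, 51.6, 47.5 and 118 CPM in comparison endothelium of libraries 1 to 4.

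Capillary genes gave no single direction. Of 21 measured, 0 were called higher and 1 lower, the water channel Aqp1, which had 154, 26.7, 72.6 and 132 CPM in arterial nuclei and 343, 113, 156 and 295 CPM in comparison endothelium. The list median was 0.11, whereas against the strict comparison it was -0.42 with 3 called lower, Aqp1, the apelin receptor Aplnr and the protease inhibitor Timp4. Rbp7, a retinol-binding protein, and Btnl9 were on the higher side, with medians of 1.16 and 0.97, or 0.37 and 0.59 against the strict comparison. No gene of the 15 measured for fatty acid handling was called in either direction, beside 0.886% of all genes called higher and 1.67% lower.

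Flow and vasoactive genes included single calls. Smad6 was the 1 of 16 shear stress and flow genes called higher, with 0 lower and a median of 0.40, or 0.15 against the strict comparison. The list members Smad7, another inhibitory SMAD, and Acvrl1, a BMP receptor, had medians of 1.40 and 1.01 without a call. Nos3, the endothelial nitric oxide synthase, had 528, 427, 535 and 750 CPM in arterial nuclei and 450, 354, 199 and 391 CPM in comparison endothelium, and was named after its values were seen. Of 16 vasoactive genes, Ace, the angiotensin-converting enzyme, was called higher at 65.0, 26.7, 72.6 and 78.6 CPM in arterial nuclei, from 8, 1, 8 and 31 UMIs, against 7.60, 11.3, 8.34 and 18.3 CPM. Calcrl, the receptor subunit for adrenomedullin and CGRP, was called lower at 536, 400, 245 and 443 CPM against 1217, 330, 607 and 1046 CPM, and library 2 did not share the direction. In the strict comparison its median was -2.07.

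Guidance and junction genes held further arterial members. Of 22 guidance genes, 2 were called higher, the ephrin receptor Epha4 and Efnb2, and 2 lower, Sema3d and the Robo ligand Slit3. The list median was -0.20, or -0.35 against the strict comparison. Epha4 had 317, 53.4, 236 and 261 CPM in arterial nuclei and 95.4, 17.1, 20.7 and 28.6 CPM in comparison endothelium. Slit3 had 4 arterial UMIs in all and was not called against the strict comparison. Of 13 junction and connexin genes, 1 was called, Gja4, and the list median was 0.43, or 0.02 against the strict comparison. The tight junction protein Cldn5 had 73.1, 80.1, 145 and 226 CPM in arterial nuclei and 40.2, 34.9, 20.2 and 30.7 CPM in comparison endothelium, with log2 differences of 0.73, 2.36 and 2.53 in libraries 1, 3 and 4, short of the call in library 1.

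Of 25 SOX, ETS and arterial regulators, the PR-domain zinc finger proteins Prdm16 and Mecom were called higher, and Nr2f2, the histone deacetylase Hdac9 and Gata4 lower. The list median was 0.10, or -0.13 against the strict comparison. Mecom had 431, 160, 408 and 697 CPM in arterial nuclei and 106, 62.1, 64.5 and 92.2 CPM in comparison endothelium. Prdm16 had 73.1, 26.7, 109 and 98.8 CPM in arterial nuclei, from 9, 1, 12 and 39 UMIs, against 13.6, 11.6, 5.62 and 7.89 CPM. Hdac9 had 325, 320, 136 and 246 CPM in arterial nuclei against 1449, 312, 414 and 560 CPM, and was also called against the strict comparison, at -2.58, whereas Gata4, which cardiomyocytes express, was not, at -0.76.

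In the hypoxia list of 14 genes, Epas1, the endothelial hypoxia-inducible factor, was called higher and Vegfa lower. Epas1 had 1536, 507, 1079 and 1518 CPM in arterial nuclei and 548, 231, 213 and 403 CPM in comparison endothelium, and its ratio was above 1 in all 4 libraries. Vegfa was not called against the strict comparison (-0.78) and was more abundant in barcodes with no endothelial UMI. None of 17 interferon genes and none of 19 immediate early and heat shock genes was called. Of all genes 0.886% were called higher and 1.67% lower, so few calls would fall in lists of this size. Of 14 tip cell and sprouting genes, the 1 call was Vegfa. Of 21 BMP and TGF-beta genes, Smad6 was called higher and Bmper lower, the second resting on 4 arterial UMIs and lost against the strict comparison.

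The series title names the nuclear receptors that Esrrb and Esrrg encode, which control mitochondrial and metabolic genes. Esrrg had 56.9, 107, 0 and 7.60 CPM in arterial nuclei, from 7, 4, 0 and 3 UMIs, against 101, 67.5, 31.9 and 48.9 CPM in comparison endothelium, with a median of -1.74, or -0.07 against the strict comparison. Esrra had 2, 3, 4 and 11 arterial UMIs and a median of -0.67, or -0.16 against the strict comparison, and Esrrb had 1 arterial UMI in all. Of 6 measured genes of this receptor network, Ppargc1a and Ppara were called lower, and 0 were called against the strict comparison.

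**Figure D3:**
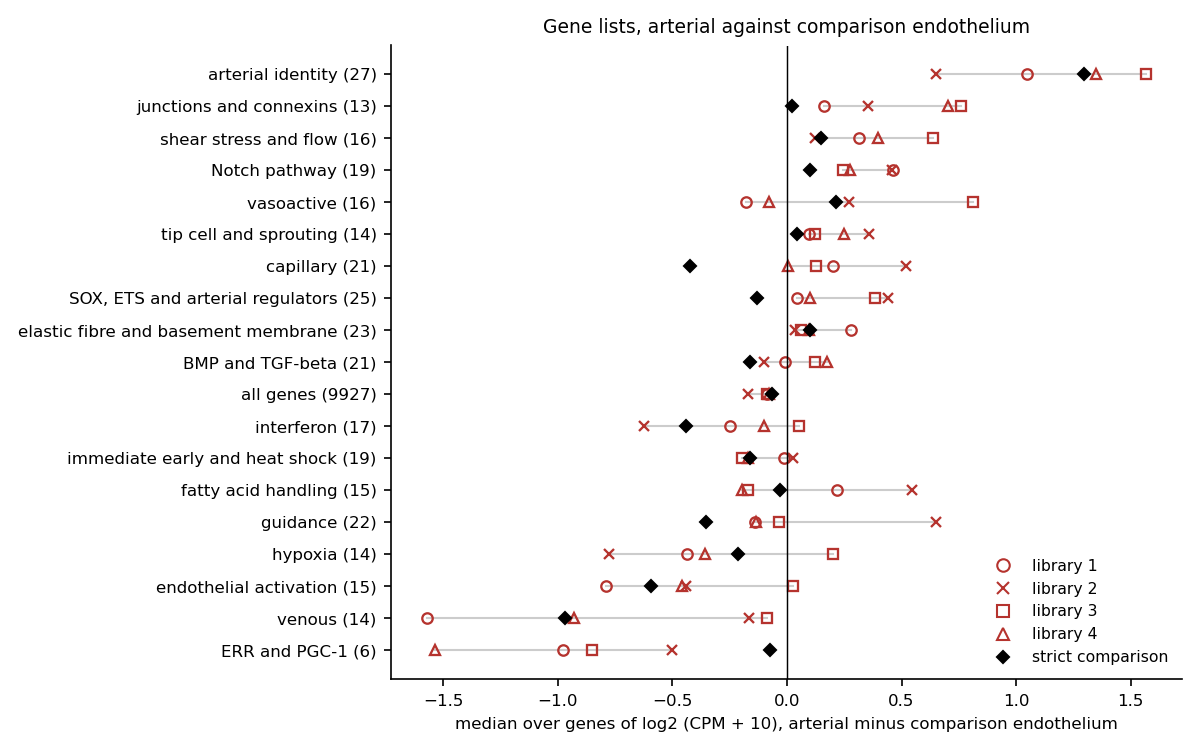
Median log2 difference in CPM with 10 added, arterial nuclei minus comparison endothelium, for 18 gene lists and all genes, with the number of measured genes in parentheses. Symbols in red are libraries 1 to 4 and black diamonds the median over the counted libraries against the strict comparison. Arterial identity lies highest at 1.35, all genes lie near 0, and the receptor network list, lowest against the comparison endothelium, lies near 0 against the strict comparison.

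Members differed among themselves according to Gja5, the connexin of larger arteries. The 107 members with Gja5 (21, 1, 19 and 66 in libraries 1 to 4) had a median of 2491 UMIs and the 180 without it (58, 19, 35 and 68) a median of 1575 UMIs. Library 4 gave 254798 of 344275 UMIs with Gja5 and 139845 of 321161 without, so pooled levels also reflect the make-up by library. The genes described here were picked after their values were seen and are a description. Among 2642 genes with at least 60 UMIs in the members, 413 were higher with Gja5 and 447 lower in all 3 counted libraries.

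Dkk2 was concentrated in the members with Gja5. It had 1505 CPM (1378 to 1640) in members with Gja5 and 81.0 CPM (52.9 to 119) in members without it, and was seen in 45 of 107 (42.1%) and 10 of 180 (5.56%). In libraries 1, 3 and 4 its level was 2539, 1958 and 1236 CPM with Gja5 and 12.2, 187 and 85.8 CPM without. Eln had 2652 CPM with Gja5 and 806 CPM without, and Sulf1 2330 and 757 CPM, with Eln seen in 72.9% and 27.2% and Sulf1 in 81.3% and 38.3% of the nuclei. Bmx, Gja4 and Vegfc, a growth factor for lymphatic and arterial vessels, had 337, 168 and 613 CPM with Gja5 and 62.3, 52.9 and 302 CPM without. The insulin-like growth factor Igf2, the receptor phosphatase Ptprj and the collagen Col8a1 had 247, 915 and 1022 CPM with Gja5 and 40.5, 199 and 283 CPM without.

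The members without Gja5 carried more of the capillary genes. Btnl9 had 26.1 CPM (11.95 to 49.6) in members with Gja5 and 299 CPM (242 to 365) in members without it. Library 1 gave 68 of the 96 UMIs without Gja5. In libraries 1, 3 and 4 its level was 146, 0 and 11.8 CPM with Gja5 and 828, 57.6 and 157 CPM without. Rgcc, a cell cycle regulator abundant in capillaries, had 32.0 CPM with Gja5 and 143 CPM without, lower with Gja5 in each counted library. Kdr, the main VEGF receptor, had 131 CPM with Gja5 and 296 CPM without, but in library 3 it had 147 CPM with Gja5 and 130 CPM without. Pooled comparison endothelium had 29.7, 61.7 and 122 CPM of Btnl9, Rgcc and Kdr, so members without Gja5 lay above it for each. For Aqp1 they lay below it, at 153 against 210 CPM. The comparison pool mixes the libraries in other proportions. Of 11 capillary genes with enough UMIs, 8 were lower with Gja5 in every counted library and 0 higher, beside 447 and 413 of 2642 genes, and the list medians were -2.28, -0.53 and -0.94 on the log2 scale in libraries 1, 3 and 4. Of 19 arterial identity genes, 7 were higher and 2 lower, with medians of 0.63, 0.17 and 0.25. Efnb2, Notch1, Notch4 and Jag2 had 610, 357, 346 and 116 CPM with Gja5 and 697, 414, 293 and 128 CPM without, with overlapping intervals for all 4 and no single direction over the counted libraries. Summed vascular smooth muscle markers had 107 CPM with Gja5 and 77.8 CPM without, and endocardial markers 131 and 68.5 CPM. Larger sums went the other way. Cardiomyocyte, fibroblast and macrophage markers had 1272, 886 and 1194 CPM with Gja5 and 1688, 1398 and 2030 CPM without. Pericyte markers had 84.2 and 249 CPM, and red blood cell markers 1542 and 2124 CPM. The part of depth and of those markers in the split was not tested.

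**Figure D4:**
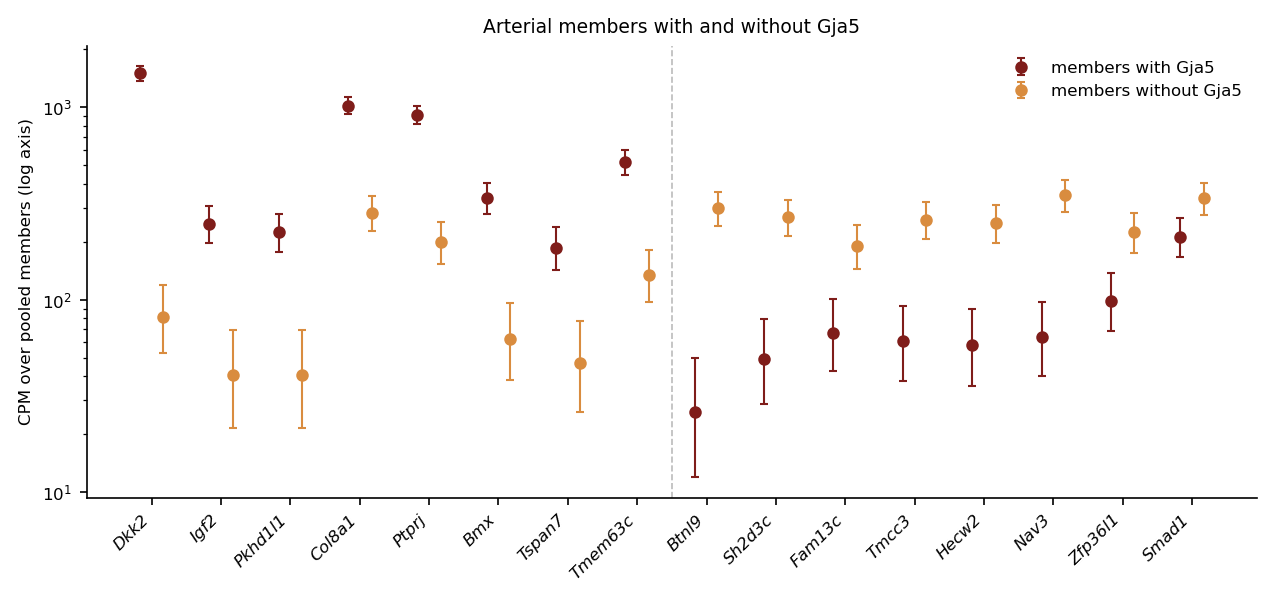
CPM (log axis) over the pooled members with Gja5 (dark red, n = 107, left of each pair) and without it (orange, n = 180), with exact Poisson intervals. The 8 upward and 8 downward genes kept 1 direction in the counted libraries and were ranked by their smallest difference over those libraries. Dkk2 has 1505 CPM with Gja5 and 81.0 CPM without, and Btnl9 has 26.1 and 299 CPM.

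Arterial nuclei also differed between libraries, in most cases together with the comparison endothelium. The 8 genes with the widest span in arterial nuclei over the counted libraries were Hbb, Reg3g, Apoe, Calr, Bgn, Eef1b2, Crip1 and Eno1, and over the counted libraries all 8 were lowest in library 1 in arterial nuclei. Apoe, a lipid carrier that macrophages make, had 16.3, 267, 608 and 137 CPM in arterial nuclei and 30.1, 224, 539 and 214 CPM in comparison endothelium, an order that barcodes with no endothelial UMI shared at 14.5, 327, 609 and 255 CPM. Calr, an endoplasmic reticulum chaperone, had 32.5, 347, 862 and 413 CPM in arterial nuclei and 52.9, 319, 775 and 545 CPM in comparison endothelium. Reg3g, a secreted lectin, had 0, 0, 463 and 40.5 CPM in arterial nuclei and 0, 59.8, 229 and 217 CPM in comparison endothelium, but 42 of the 51 arterial UMIs in library 3 came from 1 nucleus.

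Vwf, the clotting factor that endothelium stores, differed in opposite directions in libraries 1 and 3. It had 187 CPM (118 to 280), 347 CPM (185 to 593), 762 CPM (608 to 943) and 641 CPM (565 to 725) in arterial nuclei of libraries 1 to 4, against 811, 403, 510 and 681 CPM in comparison endothelium. Arterial nuclei were thus far below the comparison in library 1, above it in library 3 and close to it in library 4, and 21.5% of members carried Vwf in library 1, against 64.8 and 55.2% in libraries 3 and 4. With the strict comparison the differences were -2.47, -0.28 and -0.61 in libraries 1, 3 and 4, so the arterial excess in library 3 was not kept. Btnl9 was highest in library 1 on both sides, at 601, 53.4, 36.3 and 63.3 CPM in arterial nuclei and 133, 11.6, 14.4 and 27.4 CPM in comparison endothelium. Over the 21 capillary genes the arterial level in library 1 lay 0.65 above the mean of the counted libraries on the log2 scale, and the comparison endothelium 0.59 above its own. For the 15 endothelial activation genes the arterial level lay 0.87 below that mean in library 1, and the comparison 0.31 below.

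**Figure D5:**
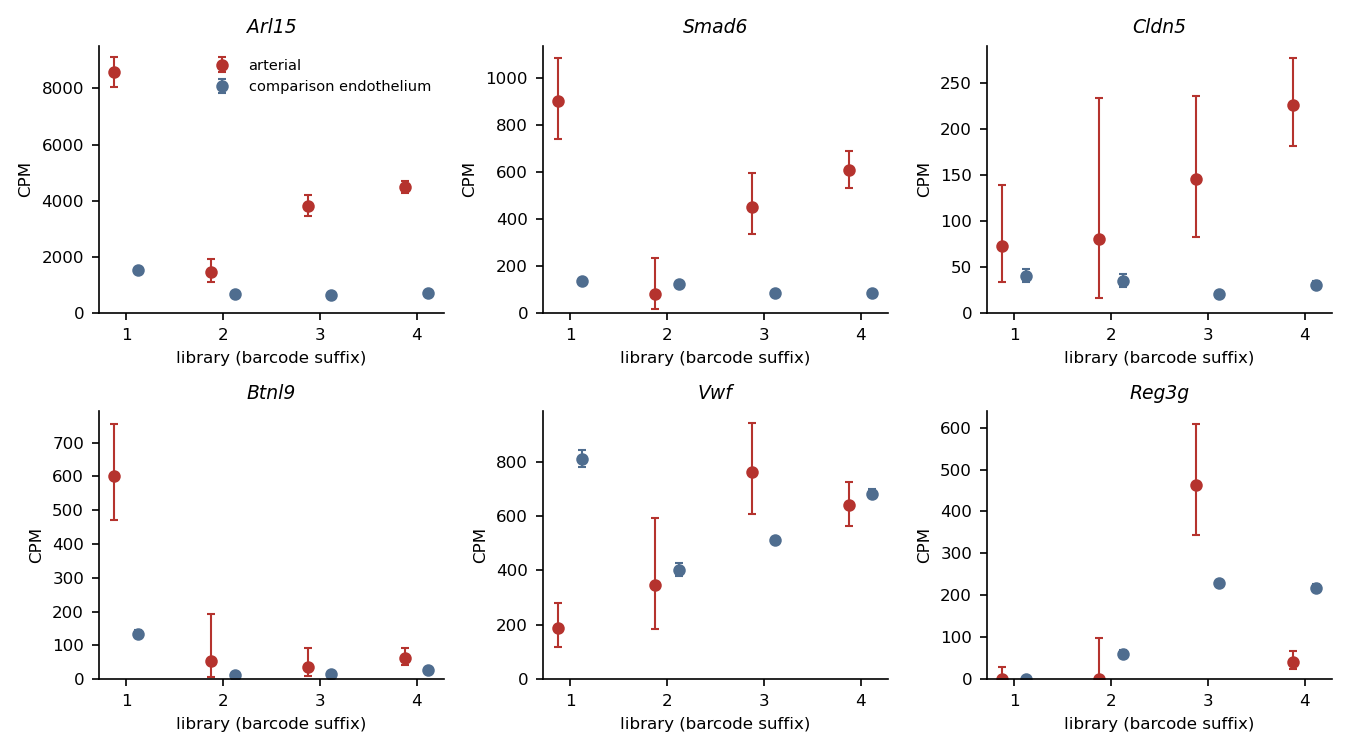
CPM by library of 6 genes in arterial nuclei (red, left) and comparison endothelium (blue, right), with exact Poisson intervals. Arl15 is higher in arterial nuclei of all 4 libraries, Smad6 in 3, and Vwf lies at 187 CPM in arterial nuclei of library 1 against 811 CPM in comparison endothelium.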

How the data were processed

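The deposited file is 1 matrix of UMI counts (Matrix Market; 32623 features, 28686 after features of 1 symbol were summed) whose file header names cellranger 5.0.1, while Cell Ranger 6.1.1, Seurat and rn7 come from the submitters' processing notes. Which build was used is not settled by these sources. The authors had already called cells, since the matrix holds 48637 barcodes. No other filter is recorded in the header. Its 4 barcode suffixes were taken as 4 libraries, which no source ties to a sample.

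From those counts, barcodes were kept that held 500 UMIs and 300 genes or more with no more than 10% of UMIs from mitochondrial genes, members were found by the rule, and UMIs were summed per library over members and over comparison barcodes and given as CPM. A gene was measured at a mean of at least 10 CPM and at least 30 UMIs. It was called at a ratio of CPM + 10 of at least 2-fold in 1 direction in each library with at least 50 members. The 4 libraries count as 1 pool without a map to samples, so there is no test. Levels carry exact Poisson intervals, shares Clopper-Pearson intervals and ratios conditional binomial intervals, all at 95% and for counting error only. A count of 0 was bounded by 3 counts. Arterial libraries held 123064, 37467, 110262 and 394643 UMIs, so library 2 gives the least precise values. Doublets were scored with scrublet in scanpy 1.11.5 and left in, except in 1 alternative.

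The members and gene lists were chosen with earlier results of these data known. Genes were named by rule: the choosing genes, the 14 higher and 10 lower genes with the largest smallest difference over the counted libraries, which also stayed at least 2-fold at the median against comparison barcodes with 0 UMIs of Npr3, Prox1 and Pdgfra, the 3 highest and 2 lowest of each list, the 8 with the broadest range of arterial level over libraries, and Esrra, Esrrb and Esrrg. Other named genes were chosen after their values were seen. Of the list and marker symbols, 13 were not found and are not analysed here. Promoters are from RefSeq, build GRCr8. Python 3.11.15, numpy 2.4.6, scipy 1.17.1, pandas 2.3.3 and matplotlib 3.10.9 were used, and the scripts were tested on simulated data. Alternatives varied the comparison, the gate, the pseudocount, the scaling, the filters and the libraries.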

Additional observations from a re-analysis of the deposited data

How the results depend on the processing

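The count of lower genes, 166 as reported, moved with the comparison, the pseudocount, the filter and the libraries. It was 77 against comparison barcodes with 0 UMIs of Npr3, Prox1 and Pdgfra, 71 with a depth-matched comparison, 56 with the strict comparison and 88 with each nucleus weighted equally. It was 282 with a pseudocount of 1 CPM, 35 with one of 50 CPM and 83 with a filter of a mean CPM of 50. The count of higher genes, 88 as reported, was 36 with a pseudocount of 50 CPM. Leaving out library 1, 3 or 4 in turn gave 115 to 147 higher genes and 251 to 306 lower genes, both highest without library 1, since fewer libraries must then pass. Library 2 was not counted, so leaving it out changed no count.

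The arterial identity median, 1.35 as reported, was 0.96 with a pseudocount of 50 CPM and 1.19 to 1.45 with 1 library left out, and the venous median, -1.02 as reported, -1.07 to -0.42. The capillary median, 0.11 as reported, was -0.20 with the 3 excluded genes at 0 in the comparison, -0.13 with the depth-matched comparison, -0.16 with equal weights, -0.42 with the strict comparison, -0.000779 with TMM scaling, 0.24 with at least 1000 UMIs and 0.07 to 0.19 with 1 library left out, so its sign depends on the comparison, the weighting and the scaling. The causes were not tested.

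Member shares in libraries 1 to 4 were 1.41, 0.352, 0.627 and 2.96% with a gate of 3 UMIs, and 6.37, 1.90, 4.39 and 11.8% of members and strict comparison together. They were 4.48 and 2.12% in libraries 1 and 2 with an endothelial condition of 4 UMIs, 1.55% in library 2 with at least 1000 UMIs and 1.46% in library 3 after scrublet removal. Of 432 alternative values of the 24 named genes, 83 moved by more than the spread between libraries, by up to 2.86 on the log2 scale, and none changed sign, which the choice of these genes largely fixed. Of 323 alternative list medians, 306 kept their sign. Removing every nucleus with markers of other cell types left 35 members (27, 0, 0 and 8 by library), so that alternative gave no value. The strict comparison, its denominator and the filter of 50 CPM were added after the data were seen. No paired analysis was possible because the libraries could not be tied to samples and no test was made. Depth limits library 2, with 20 members, and genes with few arterial UMIs.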

Other observations

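Among the higher genes not described above, picked after their values were seen, were a transcription factor, a ligand and calcium handling genes. Sox13, a SOX family transcription factor, had 772, 267, 698 and 565 CPM in arterial nuclei and 220, 81.5, 99.8 and 135 CPM in comparison endothelium, and was higher in all 4 libraries. Dhh, a hedgehog ligand, had 65.0, 0, 36.3 and 50.7 CPM in arterial nuclei and 2.53, 7.76, 4.02 and 8.12 CPM in comparison endothelium. Atp2a3, a calcium pump of the endoplasmic reticulum, had 56.9, 80.1, 90.7 and 111 CPM in arterial nuclei and 13.9, 19.8, 9.64 and 7.45 CPM in comparison endothelium. Itpr3, an inositol trisphosphate receptor that releases calcium, had 179, 107, 99.8 and 142 CPM in arterial nuclei and 38.3, 37.7, 27.8 and 34.2 CPM in comparison endothelium. Igfbp4, which binds insulin-like growth factors, had 81.3, 294, 209 and 299 CPM in arterial nuclei and 15.8, 43.5, 45.5 and 48.7 CPM in comparison endothelium, the opposite direction to Igfbp5. Gad1, which makes the transmitter GABA, had 48.8, 0, 36.3 and 38.0 CPM in arterial nuclei and 6.65, 5.43, 2.36 and 4.00 CPM in comparison endothelium.

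Of 6 fatty acid handling genes with enough UMIs, 4 were lower with Gja5 in every counted library and 0 higher, beside 447 lower and 413 higher of all 2642 genes, with medians of -1.62, -0.55 and -1.08 in libraries 1, 3 and 4. Barcodes that met the arterial gate but carried Npr3, Prox1 or Pdgfra, 56 in all, had 1096 CPM of Dkk2 and 4802 CPM of Arl15.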
